A study of Mus musculus with 6 samples.

Results

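Complement is a defense system of secreted and membrane proteins, and pentraxin 3 is a secreted pattern recognition protein that binds some of its components. Here, 9 genes of this system were followed in cultured mouse muscle stem cells with and without the histone chaperone gene Hira. They encode the 3 chains of C1q (C1qa, C1qb and C1qc), the central components C3 and C4b, the C1 inhibitor Serping1, the anaphylatoxin receptors C3ar1 and C5ar1, and pentraxin 3 (Ptx3). The genes were chosen by symbol out of 55536 genes listed in the count tables, and they were chosen with their response to Hira loss already in view, so their values are a description and carry no test. All 9 passed the filter on low counts, which left 22404 genes, although C3 and C4b passed it with few reads.

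RNA-seq was performed on 6 samples of satellite cells, the stem cells of skeletal muscle, with 3 control samples and 3 Hira cKO samples. Control mice were Pax7CreErt2;Hira fl/+, named WT in the sample labels, and cKO mice were Pax7CreErt2;Hira fl/fl, so that both groups carried the Cre recombinase driven by the satellite cell gene Pax7 and at least 1 floxed Hira allele. All mice were C57BL/6J adult males of 8 to 12 weeks and received a tamoxifen diet for 2 weeks. The Tibialis anterior muscle was injured by BaCl2, and satellite cells were sorted 5 days later as CD34-positive and ITGA7-positive cells that lacked CD45, TER119 and SCA1, then kept in culture for 48 h with high serum and bFGF. Nothing in the labels or methods says whether each sample came from a separate mouse, so p-values measure the spread between these samples, which may be technical.

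In the classical pathway, C1q recognizes immune complexes, dying cells or other surfaces and activates its proteases C1r and C1s, which cleave C4 and C2 and lead to cleavage of C3. The C1 inhibitor blocks C1r and C1s, while the small fragments C3a and C5a act on C3ar1 and C5ar1 and recruit leukocytes. In tissues, C1q and both receptors are made largely by macrophages and related myeloid cells, whereas C3, C4b, Serping1 and Ptx3 can be made by fibroblasts and other mesenchymal cells. These assignments are general knowledge: C3ar1, C5ar1, C3 and Ptx3 are each known from further cell types, and macrophages can make Ptx3 and C3 as well. After muscle injury both macrophages and mesenchymal progenitors gather around the regenerating fibers.

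For 6 of the 9 genes, the RefSeq promoter table (GRCm38.p6) held an entry, and the 150 bases before the RefSeq start are shown for the 4 of these genes that were at least 1 log2 unit higher in cKO samples and for C3, which was barely detected. Each is written 5′ to 3′ on the gene's own strand, with motif matches in capitals. The letters searched on both strands were GAGGAA for PU.1, a factor of myeloid cells, TGANTCA for AP-1, GGG, any 3 bases and TTCC for NF-kB, TTNNGNAA for C/EBP, GAAA, any 2 bases and GAAA for the interferon response element ISRE, and TATAAA for the TATA box.

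C1qb, chr4:136886201-136886350 (-): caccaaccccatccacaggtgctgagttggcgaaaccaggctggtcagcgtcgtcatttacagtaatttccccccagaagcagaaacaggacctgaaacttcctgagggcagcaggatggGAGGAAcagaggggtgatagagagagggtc

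C1qc, chr4:136892915-136893064 (-): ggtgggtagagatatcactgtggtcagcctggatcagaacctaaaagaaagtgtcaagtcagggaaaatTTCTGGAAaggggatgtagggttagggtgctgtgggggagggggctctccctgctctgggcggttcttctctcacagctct

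C3ar1, chr6:122856158-122856307 (-): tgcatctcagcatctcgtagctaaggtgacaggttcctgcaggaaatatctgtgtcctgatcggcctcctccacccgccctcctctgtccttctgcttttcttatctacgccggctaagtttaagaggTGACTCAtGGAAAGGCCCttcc

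Ptx3, chr3:66219737-66219886 (+): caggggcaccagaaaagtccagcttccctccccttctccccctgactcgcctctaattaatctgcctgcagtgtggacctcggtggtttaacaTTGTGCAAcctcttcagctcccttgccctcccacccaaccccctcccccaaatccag

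C3, chr17:57228137-57228286 (-): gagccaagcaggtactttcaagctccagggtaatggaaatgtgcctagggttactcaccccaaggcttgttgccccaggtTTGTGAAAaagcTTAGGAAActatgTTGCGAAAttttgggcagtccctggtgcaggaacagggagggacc

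The capitals mark a PU.1 match 30 bases before the start of C1qb and a C/EBP match 81 bases before the start of C1qc. C3ar1 held an AP-1 match 22 bases and an NF-kB match, on the opposite strand, 14 bases before its start, and Ptx3 held a C/EBP match 57 bases before its start. C3 held C/EBP matches 70, 58 and 45 bases before its start, and the last of these reads on both strands. No match overlapped one of another motif, and the C5ar1 window, also in the table, held none. Among 32851 promoter windows of the same length, 14.5% held the PU.1 letters, 22.7% the C/EBP letters, 4.24% the AP-1 letters, 3.05% the NF-kB letters, 1.59% the ISRE letters and 7.57% the TATA letters. No motif was found in all 4 windows of the higher genes, and C/EBP matches were found in C1qc and Ptx3 as well as in C3. For Ptx3 and C1qb, the first transcribed RefSeq bases were not found in a GENCODE M21 transcript. Their windows lie upstream of the annotated gene starts at 66219910 and 136886187, but not directly at them. The C1qc and C5ar1 windows lie inside the annotated gene spans, which start at 136893065 and 16259540 on the minus strand. These windows are thus not upstream of the genes as annotated for counting.

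Libraries held 47944477 to 63323577 counted reads. Hira had 375, 348 and 341 counts in control replicates 1, 2 and 3 and 161, 293 and 272 counts in cKO replicates 1, 2 and 3, a log2 fold change of -0.43 (SE 0.12, adjusted p = 0.0237, edgeR quasi-likelihood test). Its exons overlap the same-strand model Gm28539 over 44.7% of their length, so part of these reads cannot be assigned. For cKO satellite cells the paper reports a sharp fall of Hira mRNA by RT-qPCR and no HIRA protein by immunostaining. Over all genes tested, 9.38% were higher and 6.46% were lower in cKO samples at an adjusted p under 0.05, or 2101 and 1448 genes. With library totals alone as scaling, this split was 2462 higher and 1057 lower. The median log2 fold change over all genes tested was -0.0011.

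Cells positive for CD45, the product of Ptprc, were gated out at the sort, yet macrophage transcripts were present in every sample and higher in cKO samples. Of 22 macrophage markers, 20 rose and 0 fell, with 1.02 as the median log2 fold change. Over all genes tested, 9.38% were higher and 6.46% lower, and these shares stand beside each marker list below. Levels are given in CPM (count divided by the library total, scaled to 1000000). The macrophage markers summed to 154 to 161 CPM in control samples and 321 to 377 CPM in cKO samples. Lyz2 made up 50.3% to 54.2% of that sum. Ptprc was among them, with 72, 94 and 94 counts in control samples and 126, 169 and 167 in cKO samples. Mesenchymal markers moved the same way, with 11 of 15 tested rising, 0 falling, a median log2 fold change of 0.69 and sums of 1712 to 1813 CPM in control samples and 2347 to 2603 CPM in cKO samples. Col1a2 made up 28.8% to 33.7% of that sum and Col3a1 18.7% to 22.3%. Other members were near the floor, with at most 12 counts in any sample for Lum, 1 for Tcf21 and 27 for Pi16, while Pdgfra had 1325 to 3318. In control samples the mean level was 586 CPM for Col1a2 and 0.953 CPM for Dcn. Which cells made the transcripts of the mesenchymal markers was not tested. Endothelial markers rose for 6 of 11, with 0 falling, a median of 0.36 and sums of 36.5 to 38.8 CPM against 53.8 to 62.5 CPM. Of the 8 satellite cell and myoblast markers tested, 7 fell, with a median of -0.17. In the liver, hepatocytes make most plasma complement, but none of 5 hepatocyte markers passed the filter and Alb had 0 counts in every sample. Neutrophil markers summed to 0.212 to 0.301 CPM in control samples and 0.389 to 0.605 CPM in cKO samples with S100a9 and Elane at 0, and lymphocyte markers to 0.293 to 0.495 CPM and 0.251 to 0.563 CPM. In these bulk samples a change in the number of cells of a type and a change in RNA per cell cannot be told apart.

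The 3 C1q chains were all about 2-fold higher in cKO samples. C1qa (ENSMUSG00000036887), the A chain, lies on chromosome 4 at 136895917 to 136898803 (mm10, minus strand), and it had 527, 495 and 513 counts in control replicates 1 to 3 and 862, 1185 and 1018 counts in cKO replicates 1 to 3. All cKO samples lay above all control samples. Its level was 8.50 ± 0.761 CPM in control samples and 18.7 ± 1.12 CPM in cKO samples (mean ± SD, n = 3 for both), which gave a log2 fold change of 1.12 with an SE of 0.07 and a 95% interval of 0.98 to 1.26.

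C1qb (ENSMUSG00000036905), the B chain, lies next to C1qa and C1qc on the same strand of chromosome 4, at 136880129 to 136886187. It had 414, 457 and 447 counts in control samples and 776, 993 and 744 counts in cKO samples, without overlap. Control samples were within a narrow range, and cKO replicate 3 was the lowest of its group at 13.3 CPM against 16.2 and 16.8 CPM. The means were 7.27 ± 0.0526 CPM and 15.4 ± 1.85 CPM, a log2 fold change of 1.06 (SE 0.08, interval 0.89 to 1.23).

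C1qc (ENSMUSG00000036896), the C chain, at 136889804 to 136893065 between the other chains, had 311, 353 and 329 counts in control samples and 613, 848 and 708 counts in cKO samples. Again no cKO sample reached down to the controls. Its mean was 5.48 ± 0.110 CPM in control samples and 13.3 ± 0.927 CPM in cKO samples, a log2 fold change of 1.25 (SE 0.07, interval 1.11 to 1.40).

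The chains assemble in equal parts into the C1q protein, and their counts kept like proportions within each sample. C1qb counts were 0.786, 0.923 and 0.871 of the C1qa counts in control samples and 0.900, 0.838 and 0.731 in cKO samples. C1qc counts were 0.590, 0.713 and 0.641 of the C1qa counts in control samples and 0.711, 0.716 and 0.695 in cKO samples. Both ratios overlapped between the groups. Per length, the chains were not equal, since C1qa had 8.17 ± 0.732, C1qb 6.68 ± 0.0483 and C1qc 2.84 ± 0.0568 CPM per kb of exon in control samples. The annotated exons of C1qc span 1931 bases, against 1040 for C1qa and 1088 for C1qb.

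**Figure D1:**
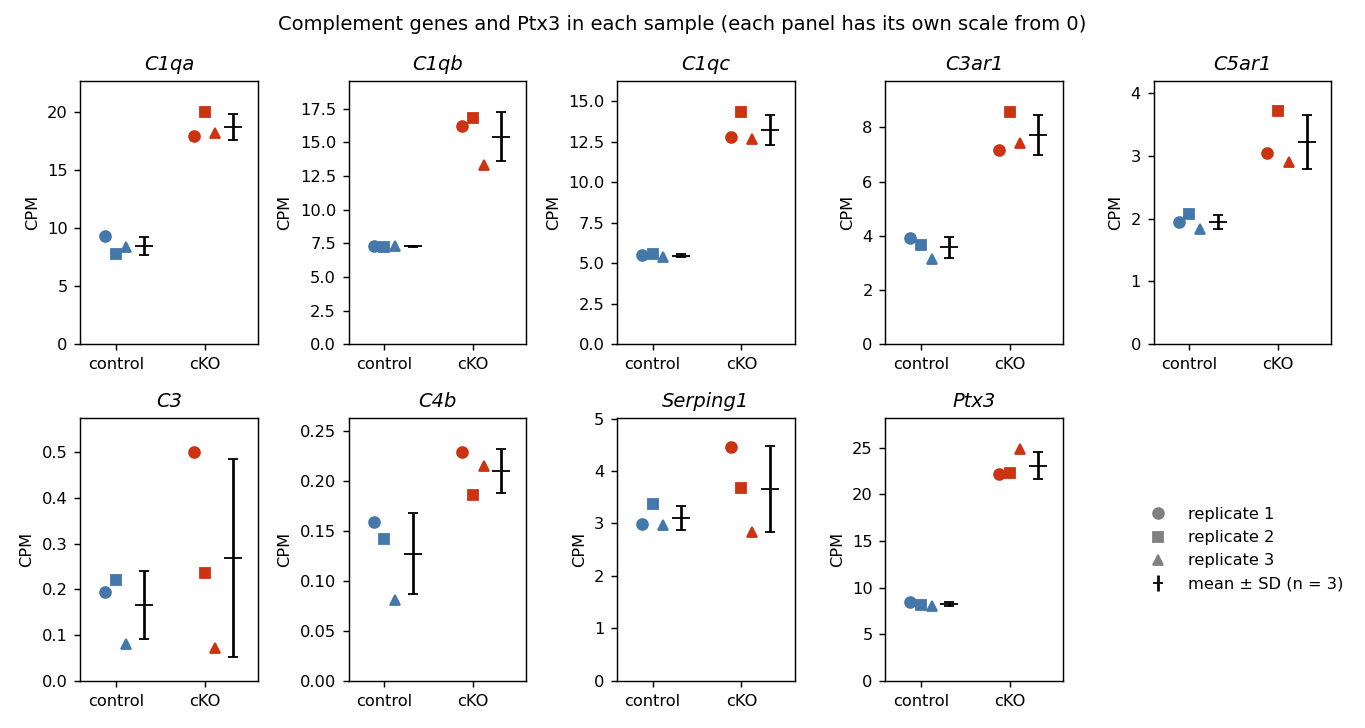
Level in CPM (y axis, from 0, a separate scale per panel) of the 9 genes in each control and cKO sample, with symbols for replicates 1 to 3 and bars for the mean ± SD (n = 3). For the C1q chains, C3ar1, C5ar1, C4b and Ptx3 every cKO sample lies above every control sample, while the groups overlap for C3 and Serping1, whose highest cKO sample is replicate 1 and whose lowest is replicate 3.

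Both anaphylatoxin receptors were higher in cKO samples. C3ar1 (ENSMUSG00000040552, chromosome 6, 122847138 to 122856161, minus strand), the receptor for C3a, had 222, 232 and 194 counts in control samples and 343, 506 and 415 counts in cKO samples. The groups did not overlap. Its mean was 3.58 ± 0.389 CPM in control samples and 7.71 ± 0.741 CPM in cKO samples, a log2 fold change of 1.09 (SE 0.09, interval 0.89 to 1.29).

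C5ar1 (ENSMUSG00000049130, chromosome 7, 16246743 to 16259540, minus strand), the receptor for C5a, had 110, 131 and 113 counts in control samples and 146, 220 and 162 counts in cKO samples. The groups did not overlap, and replicate 2 was the highest sample in each. Its mean was 1.95 ± 0.114 CPM in control samples and 3.22 ± 0.437 CPM in cKO samples, a log2 fold change of 0.70 (SE 0.12, interval 0.45 to 0.96). This was the lowest fold among the macrophage-made genes, and its interval overlaps those of C1qb and C3ar1 but lies below those of C1qa and C1qc.

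Ptx3 (ENSMUSG00000027832, chromosome 3, 66219910 to 66225805, plus strand) had the highest fold of the 9 genes. It encodes a long pentraxin that is released by stromal and myeloid cells on inflammatory stimulation. It had 477, 516 and 496 counts in control samples and 1061, 1320 and 1385 counts in cKO samples. The lowest cKO sample was thus well above the highest control sample, with 22.1 CPM against 8.44 CPM. The mean was 8.22 ± 0.189 CPM in control samples and 23.1 ± 1.49 CPM in cKO samples, a 2.76-fold difference and a log2 fold change of 1.47 (SE 0.06, interval 1.34 to 1.59). The gene lies within the span of Veph1 on the opposite strand, and no exon of Ptx3 overlaps an exon of another gene.

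C3 and C4b, the central components whose cleavage marks a surface, were barely detected. They have 42 and 40 annotated exon blocks, and reads were not split across introns, which may lower their counts. C3 (ENSMUSG00000024164, chromosome 17, 57203970 to 57228136, minus strand) had 11, 14 and 5 counts in control samples and 24, 14 and 4 counts in cKO samples. The groups overlapped, with both the highest and the lowest of the 6 samples among the cKO. The log2 fold change of 0.62 (SE 0.54, interval -0.52 to 1.76) rested on cKO replicate 1, without which it was -0.11, and was 1.07 without cKO replicate 3. At this depth no difference in C3 was detectable.

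C4b (ENSMUSG00000073418, chromosome 17, 34728380 to 34743882, minus strand) had 9, 9 and 5 counts in control samples and 11, 11 and 12 counts in cKO samples. The cKO samples were above the control samples by few reads, with 0.128 ± 0.0409 CPM and 0.210 ± 0.0221 CPM. The log2 fold change was 0.68 (SE 0.38, interval -0.12 to 1.49), and it was 0.45 without control replicate 3. Of its 75-base windows, 22.7% occur also in its neighbor copy C4a, so reads can be split between both genes. C4a itself had 39, 36 and 29 counts in control samples and 48, 35 and 33 counts in cKO samples, a log2 fold change of 0.29 (SE 0.25, adjusted p = 0.513, edgeR).

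Serping1 (ENSMUSG00000023224, chromosome 2, 84765387 to 84775444, minus strand), the inhibitor of C1r and C1s, was better covered than C3 and C4b and differed little. It had 169, 213 and 182 counts in control samples and 214, 218 and 158 counts in cKO samples. The groups overlapped, since cKO replicate 3 had 2.83 CPM, below all control samples at 2.96 to 3.36 CPM, while cKO replicate 1 had 4.46 CPM. The log2 fold change was 0.20 (SE 0.13, interval -0.09 to 0.49), which was 0.043 without cKO replicate 1 and 0.35 without cKO replicate 3.

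Of the 9 genes, 6 passed the genome-wide threshold as higher and 0 as lower, beside 9.38% and 6.46% of all genes tested. These were the C1q chains, C3ar1, C5ar1 and Ptx3, and nothing is read from this count because the contrast was known when the genes were chosen. In 7 of 9 the groups did not overlap, with cKO samples higher, beside 20.3% of all genes tested. The 5 macrophage-made genes ranged from 0.70 to 1.25 in log2 fold change, with 1.09 as their median. The 4 mesenchymal-made genes had a median of 0.65 and a wider range, 0.20 to 1.47, with Ptx3 at the top and Serping1 at the bottom. The median falls between C3 (0.62, SE 0.54) and C4b (0.68, SE 0.38), both barely detected, so it rests on few reads. That median fell to 0.33 without cKO replicate 1. Summed, macrophage-made genes were at 26.0 to 28.0 CPM in control samples and 54.6 to 63.4 CPM in cKO samples, and mesenchymal-made genes at 11.2 to 11.9 CPM and 26.4 to 27.9 CPM, most of it Ptx3. The ranges of both classes overlapped.

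Counts were next set against marker genes of the same sample, which takes library scaling out of the values. C1qa was 5.78%, 5.00% and 5.42% of the summed macrophage markers in control samples and 5.33%, 5.31% and 5.67% in cKO samples, with full overlap. C1qb and C3ar1 also overlapped between the groups on this measure. C1qc lay slightly higher in cKO samples, at 3.41% to 3.56% in control samples and 3.79% to 3.95% in cKO samples. C5ar1 lay lower, at 1.19% to 1.32% in control samples and 0.903% to 0.985% in cKO samples.

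The choice of the reference gene changed some of these comparisons. Against Csf1r, the receptor that macrophages depend on, C1qa had ratios of 1.66, 1.57 and 1.67 in control samples and 1.85, 1.82 and 2.0 in cKO samples, so the groups did not overlap. Against Ptprc its ratios were 7.32, 5.27 and 5.46 in control samples and 6.84, 7.01 and 6.10 in cKO samples, and the groups overlapped. Ptprc had at most 169 counts in any sample. Against Cd68 the C1qa ratios were higher in cKO samples, at 0.780 to 0.953 in control samples and 0.980 to 1.04 in cKO samples. C5ar1 was lower in cKO samples against Csf1r, with ratios of 0.347, 0.416 and 0.368 in control samples and 0.313, 0.338 and 0.318 in cKO samples. Against Ptprc, C5ar1 overlapped between the groups, at 1.20 to 1.53 in control samples and 0.970 to 1.30 in cKO samples. Against Cd68 it was lower in cKO samples, at 0.193 to 0.206 in control samples and 0.166 to 0.182 in cKO samples. Mesenchymal references differed among themselves. Against Pdgfra, a receptor of mesenchymal progenitors, C1qa had 0.385, 0.341 and 0.387 in control samples and 0.355, 0.357 and 0.383 in cKO samples, and the groups overlapped. They overlapped against Dcn as well, whereas C1qa per Col1a1 count was lower in cKO samples, at 0.0648 to 0.0785 in control samples and 0.0617 to 0.0641 in cKO samples. As a percentage of the summed mesenchymal markers, of which Col1a2 and Col3a1 are the most abundant, C1qa was higher in cKO samples. It was at 0.431% to 0.544% in control samples and 0.764% to 0.777% in cKO samples. C5ar1 was higher on this measure as well, at 0.104% to 0.114% and 0.124% to 0.143%. Against Pdgfra, however, C5ar1 was lower in cKO samples, at 0.0804 to 0.0903 in control samples and 0.0602 to 0.0663 in cKO samples. C5ar1 was also lower against Col1a1 and overlapped between the groups against Dcn. Pdgfra itself had 1368, 1450 and 1325 counts in control samples and 2427, 3318 and 2659 counts in cKO samples, a log2 fold change of 1.15 (SE 0.06, adjusted p = 2.67e-09, edgeR), and Csf1r had a log2 fold change of 0.92 (SE 0.08, adjusted p = 1.16e-06, edgeR). Exons of Csf1r overlap those of Hmgxb3 on the opposite strand over 15.1% of their length.

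Ptx3 was higher in cKO samples against Csf1r, Pdgfra and both summed marker lists but overlapped between the groups against Col1a1 and Dcn. Its ratio to Csf1r was 1.50, 1.64 and 1.62 in control samples and 2.27, 2.03 and 2.72 in cKO samples. To Pdgfra it was 0.349, 0.356 and 0.374 in control samples and 0.437, 0.398 and 0.521 in cKO samples. To Col1a1 it was 0.0675 to 0.0711 in control samples and 0.0687 to 0.0862 in cKO samples, and to Dcn 7.40 to 10.98 and 9.82 to 13.3. Dcn had few reads, with 58, 47 and 67 counts in control samples. As a percentage of the summed mesenchymal markers, Ptx3 was at 0.450% to 0.493% in control samples and 0.857% to 1.06% in cKO samples. Against the macrophage list it was at 5.21% to 5.24% and 5.91% to 7.72%. Serping1 was lower in cKO samples against Pdgfra, at 0.124, 0.147 and 0.137 of the Pdgfra counts in control samples and 0.0882, 0.0657 and 0.0594 in cKO samples. Against the macrophage list Serping1 was at 1.85% to 2.15% in control samples and 0.880% to 1.32% in cKO samples. Against the summed mesenchymal markers its groups overlapped, at 0.167% to 0.186% in control samples and 0.121% to 0.190% in cKO samples. The part of changed cell numbers in any of these values was not tested.

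**Figure D2:**
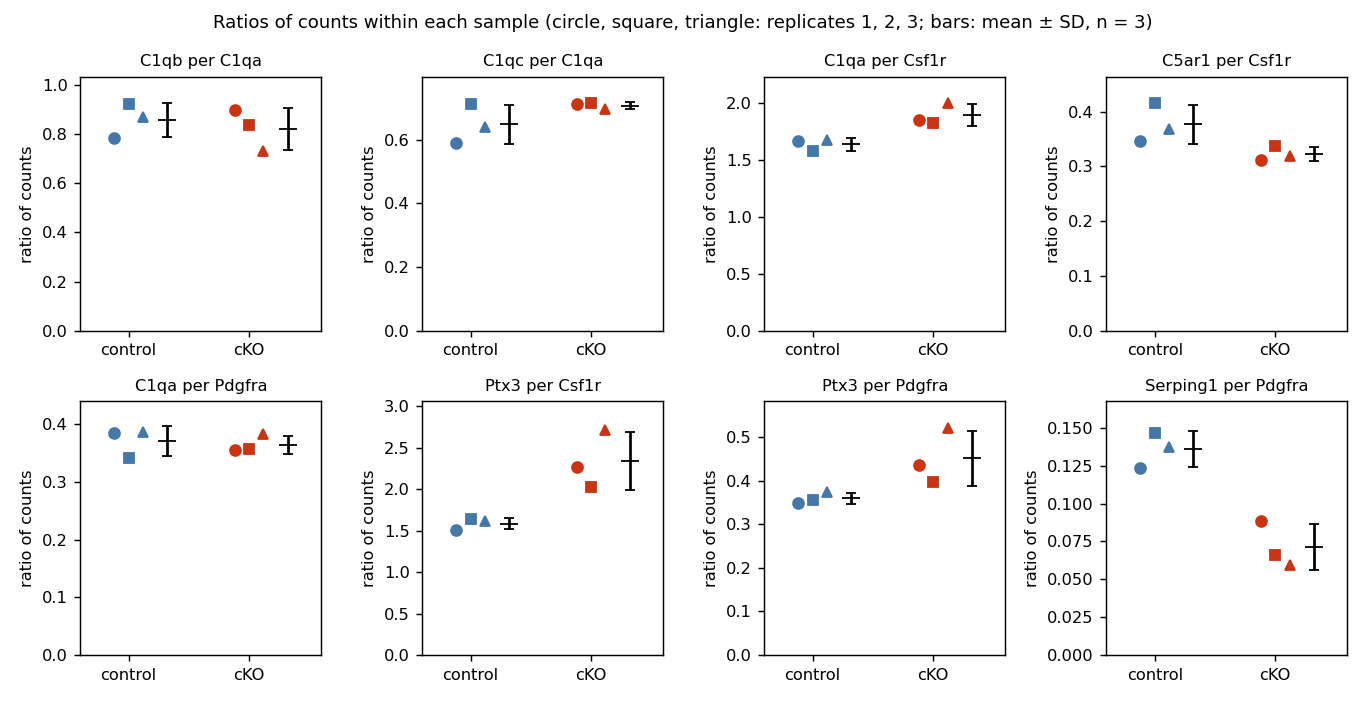
Ratio of raw counts of 2 genes within each sample (y axis, from 0) for 8 gene pairs in control samples and cKO samples, with symbols for replicates 1 to 3 and bars for the mean ± SD (n = 3). C1qb and C1qc per C1qa and C1qa per Pdgfra overlap between the groups, C1qa per Csf1r and both Ptx3 ratios are higher in cKO samples, and C5ar1 per Csf1r and Serping1 per Pdgfra are lower.

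The rest of the system was examined with a list of 56 further complement and pentraxin genes. Like the marker lists, it was chosen with earlier results of these data known, so its counts of calls are a description. Of these, 28 passed the filter on low counts, and 16 had at most 3 counts in every sample. In 7 of these 16 no sample had a read, among them the mannose-binding lectins Mbl1 and Mbl2 and the short pentraxin Crp. Among the 28 tested, 12 rose and 0 fell (edgeR, adjusted p under 0.05), beside 9.38% and 6.46% of all genes. At an unadjusted p under 0.05, 15 were higher and 0 lower, and DESeq2 also called 12 higher and 0 lower. The median log2 fold change of the 28 genes was 0.42.

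The other receptors, with the integrins that bind C3 fragments, had a median log2 fold change of 1.07. Of 7 listed, 6 were tested and 5 rose, beside 9.38% of all genes tested. Itgb2, the shared beta chain of complement receptors 3 and 4, had 194, 180 and 207 counts in control samples and 363, 450 and 370 in cKO samples, a log2 fold change of 1.15 (SE 0.09, adjusted p = 3.83e-07, edgeR). Its partners Itgam and Itgax rose by 1.06 (SE 0.14) and 1.08 (SE 0.17). The value of Itgam is uncertain, since 68.7% of its exon length overlaps the same-strand model Gm49368. Vsig4, a C3b receptor of tissue macrophages, rose by 1.90 (SE 0.41, adjusted p = 0.00486, edgeR) on few reads, with 4, 4 and 9 counts in control samples and 16, 29 and 14 in cKO samples. Cd93, found on endothelial and myeloid cells and once proposed as a C1q receptor, rose by 0.77 (SE 0.07), from 11.3 ± 0.764 CPM to 19.5 ± 2.08 CPM. C1qbp, a largely mitochondrial protein that can bind C1q, did not pass the test (log2 fold change -0.09, SE 0.06, adjusted p = 0.409, edgeR). C5ar2, the second C5a receptor, had 4 to 11 counts per sample and was not tested.

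In the early classical and lectin steps, 8 of 15 genes were tested and 4 rose, beside 9.38% of all genes tested. The C1q-associated proteases C1ra and C1s1 rose by 0.91 (SE 0.16, adjusted p = 0.00075, edgeR) and 0.98 (SE 0.22, adjusted p = 0.00584, edgeR) on the log2 scale. C1ra had 46, 49 and 51 counts in control samples and 82, 87 and 82 in cKO samples, and C1s1 had 20, 41 and 31 counts in control samples and 53, 57 and 55 in cKO samples. Both have near copies, C1rb and C1s2. Of the 75-base windows of C1ra, 42.4% occur in other genes, mainly C1rb. Of those of C1s1, 24.8% occur in C1s2 or Gm16567. Gm16567 lies on the opposite strand and overlaps 18.4% of the C1s1 exon length. The values of C1ra and C1s1 are thus uncertain. The lectin pathway protease Masp1 and the membrane collectin Colec12 were much more abundant and rose slightly, by 0.29 (SE 0.04) from 38.8 ± 1.27 to 48.2 ± 2.32 CPM and by 0.28 (SE 0.04) from 31.8 ± 1.64 to 39.3 ± 1.33 CPM. Masp2 and C4a did not pass the test. Exons of Masp2 overlap those of Tardbp on the opposite strand over 54.9% of their length. The strand setting of the counting is not given, so the value of Masp2 is uncertain. C2, cleaved together with C4, had 3 to 21 counts per sample and was not tested, and 42.8% of its exon length overlaps Gm20547 on the same strand, where reads cannot be assigned.

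The alternative pathway and the terminal components were mostly near 0. The stabilizing factor Cfp (properdin), made by leukocytes, rose by 0.50 (SE 0.11, adjusted p = 0.0045, edgeR), with 188, 190 and 163 counts in control samples and 193, 285 and 223 in cKO samples. Cfb and Cfd, the proteases of this pathway, had at most 5 counts in any sample, but exons of Cfb overlap the same-strand model Gm20547 over 79.5% of their length, so its reads may have gone uncounted. Of the 7 terminal genes 1 was tested, C8g, which did not pass (log2 fold change -0.11, adjusted p = 0.852, edgeR). Hc, which encodes C5, the precursor of the C5ar1 ligand, had 3, 4 and 3 counts in control samples and 8, 11 and 12 in cKO samples and did not pass the filter. C3 and Hc, whose products C3a and C5a bind C3ar1 and C5ar1, were thus at or below 24 counts in every sample, while both receptors had at least 110. However, C3 and Hc have 42 and 44 annotated exon blocks, against 2 for C3ar1 and 3 for C5ar1. Reads were not split across introns, which may lower the counts of C3 and Hc, and the size of this effect was not tested.

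Regulators on the membrane were detected throughout, with 8 of 8 tested, and 1 rose, beside 9.38% of all genes tested. This was Cd59a, which blocks the membrane attack complex, with 205, 268 and 262 counts in control samples and 312, 361 and 331 in cKO samples (log2 fold change 0.58, SE 0.09, adjusted p = 0.000196, edgeR). Cd55 and Cr1l, which limit C3 convertases, did not pass the test, with log2 fold changes of -0.14 (interval -0.31 to 0.04) and 0.09 (interval -0.0047 to 0.19). Of 11 soluble regulators, 2 were tested and 0 passed by edgeR, also at an unadjusted p under 0.05, or by DESeq2. Clu, a chaperone that holds back the membrane attack complex, had a log2 fold change of 0.52 (interval -0.046 to 1.08). Among 5 other pentraxins, the neuronal pentraxin Nptx1 rose by 0.45 (SE 0.09, adjusted p = 0.0029, edgeR), Nptx2 did not pass (0.98, SE 0.38, adjusted p = 0.106, edgeR), and Crp, Apcs and Ptx4 had at most 3 counts in any sample.

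**Figure D3:**
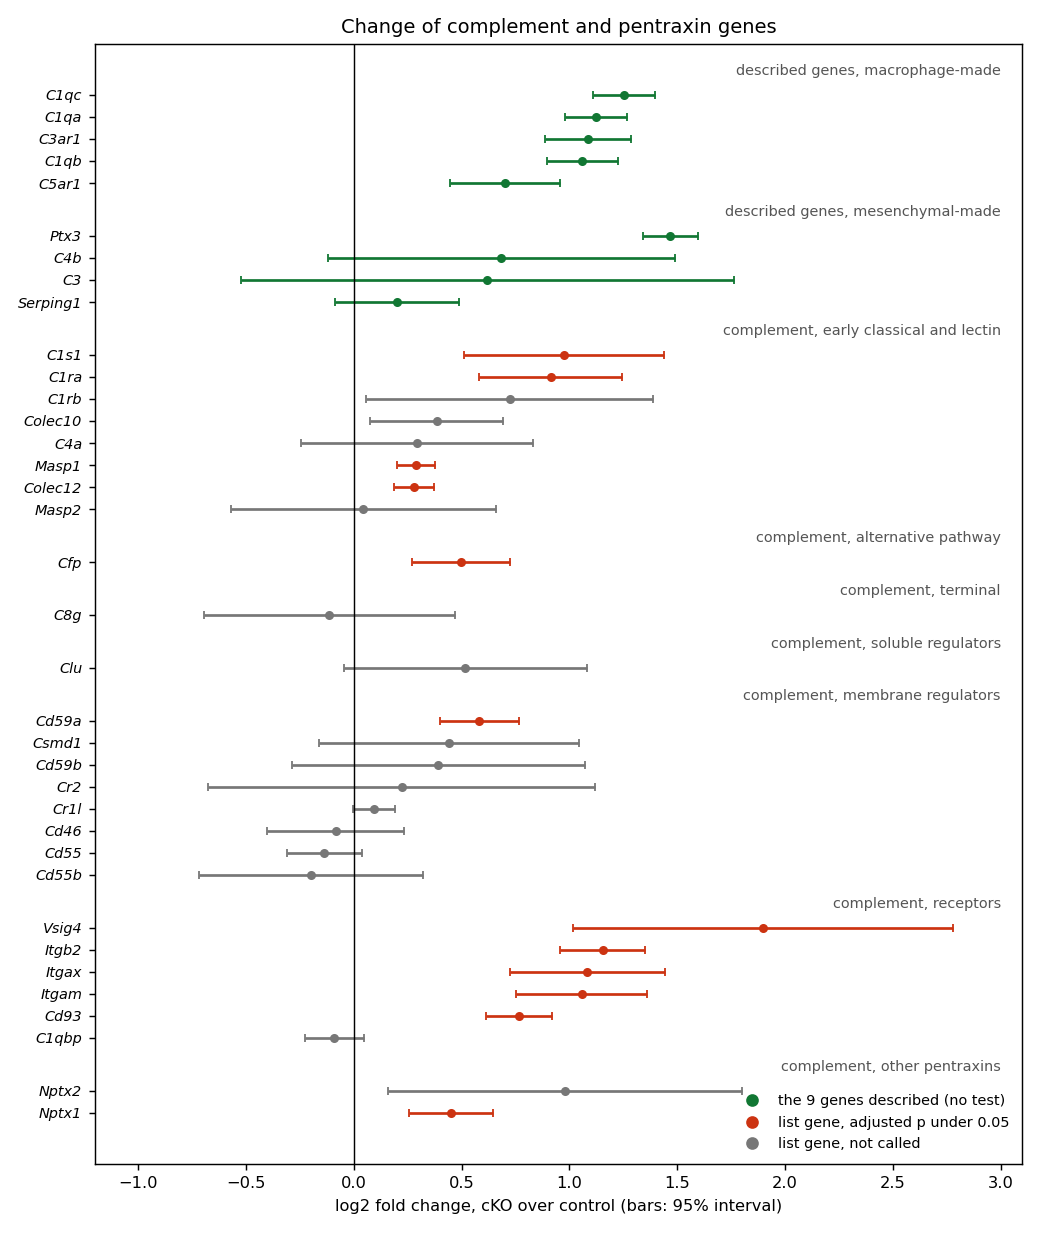
Fitted log2 fold change of cKO over control (x axis, bars give the 95% interval) for the 9 genes in green and the tested genes of the complement and pentraxin list that are reported, in red where the adjusted p is under 0.05 and otherwise in gray, grouped by step. Ptx3 is at 1.47, the C1q chains and C3ar1 at 1.06 to 1.25, the integrin receptors at 1.06 to 1.15, and the regulators between -0.20 and 0.58.

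Per length of exon, levels ran over a wide range. In control samples C1qbp led the whole list with 36.0 ± 1.58 CPM per kb, followed by C1qa and C1qb, whose ranges over the samples did not overlap, then Masp1 at 3.95 ± 0.129, Colec12 at 3.65 ± 0.188, Ptx3 at 3.07 ± 0.0705 and C1qc at 2.84 ± 0.0568. Serping1 had 1.34 ± 0.0963 CPM per kb. C3ar1 and C5ar1 were neighbors that did not differ beyond their spread, at 0.832 ± 0.0904 and 0.759 ± 0.0445. C3 and C4b were the lowest of the 9 genes, at 0.0322 ± 0.0144 and 0.0224 ± 0.00717 and did not differ beyond their spread either. Their many exons may lower these values against genes with few exons, since reads were not split across introns. In cKO samples Ptx3, at 8.61 ± 0.557, lay above C1qc at 6.87 ± 0.48, and the distance from C1qa at 18.0 ± 1.08 to C3 at 0.0524 ± 0.0421 CPM per kb was still wide.

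**Figure D4:**
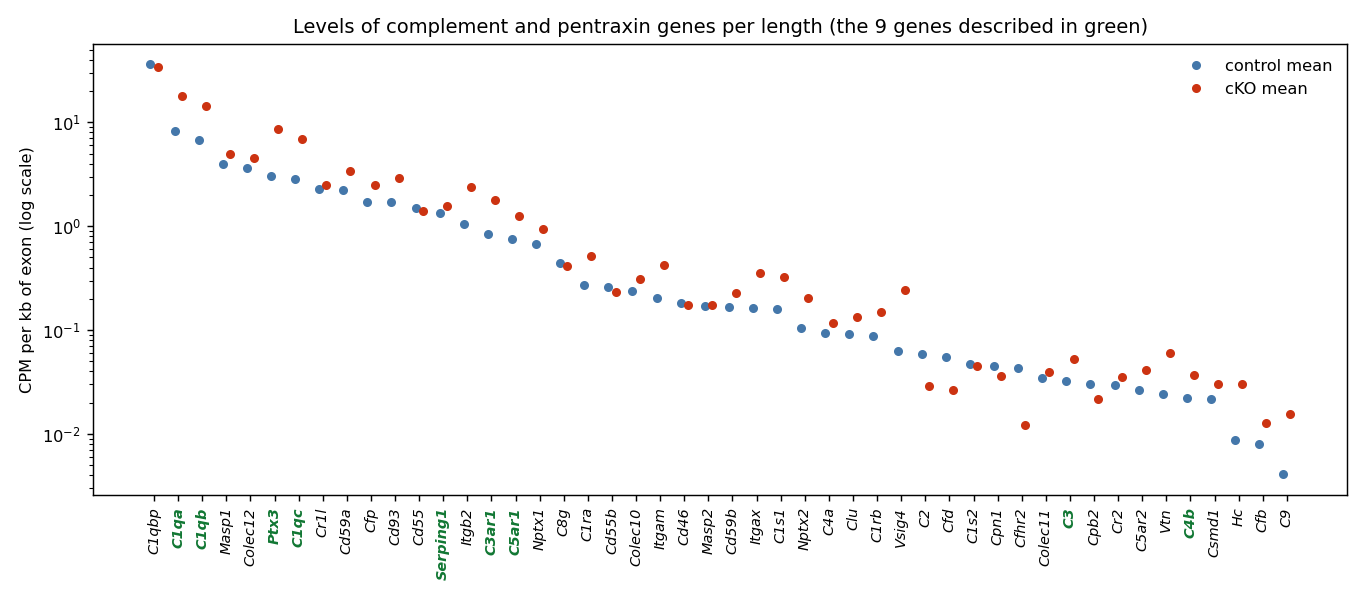
Mean level per length (y axis, CPM per kb of exon, log scale) in control samples and cKO samples (n = 3 each, means without error bars) of the 9 genes, with names in green, and of the reported list genes with more than 3 counts in at least 1 sample, ordered by the control mean. C1qa and C1qb follow C1qbp at the top with 8.17 and 6.68 in control samples, and C3 and C4b stand near the bottom at 0.0322 and 0.0224.

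Genes with the most similar pattern were found by the Euclidean distance, over the 6 samples, of log2 CPM relative to the control mean, among 16641 other genes with a mean of at least 1 CPM. For C1qb these included Cd53 and Msr1, a leukocyte tetraspanin and a macrophage scavenger receptor, at distances of 0.117 and 0.168, together with the surface glycoprotein Thy1 at 0.160. For C1qc they were the collagen gene Col1a1 at 0.0932, Pi15 at 0.118 and the macrophage lysozyme Lyz2 at 0.127. For C1qa they were Naalad2, Ccbe1 and the prostaglandin E synthase Ptges, at 0.0577 to 0.107. Of the 9 genes nearest to the C1q chains, Cd53 and Lyz2 are on the macrophage list and Thy1 and Col1a1 on the mesenchymal list, and the others are on neither. C3ar1 lay near the leukocyte actin-bundling gene Lcp1 (0.121), Adm and Lgalsl, and C5ar1 near Sobp, the cholesterol transporter Abca1 (0.121) and Lgals9. For Ptx3 the nearest were Brinp1, the membrane metalloprotease gene Mmp16 and Rassf6, at 0.173 to 0.235. Serping1 was nearest to Ncald, Echdc3 and Cryl1, at 0.165 to 0.199. C4b had Fjx1, Fyb2 and Susd2 at 0.287 to 0.357. C3 had no close pattern among the genes compared, the nearest being Klhl6 at 1.11, 9030407P20Rik at 1.34 and Ankmy1 at 1.37. C3 and C4b themselves were below 1 CPM in every sample, so every gene compared was better covered. With so few reads, the distances for C3 and C4b say little about their patterns.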

How the data were processed

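RNA-seq libraries were made from 400 ng RNA with a stranded total RNA kit after ribosomal RNA depletion and sequenced as single 75-base reads. The authors deposited raw counts per gene (GENCODE M21 identifiers, mm10) for each sample, and per the submitters' processing notes the tools were Bowtie2 2.3.4.2, featureCounts 1.6.3 and DESeq2 2.11.40.6. Bowtie2 does not split reads across introns, which lowers counts of genes with many short exons, and the strand setting and the treatment of reads with several positions are not given in the sources used here. The deposited tables of normalized counts and of the authors' own comparison (fold changes and p-values) were not used.

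All 55536 identifiers matched the GENCODE M21 annotation. Counts were fitted with edgeR 4.0.16 in R 4.3.3 (filterByExpr, TMM, quasi-likelihood test, cKO against control, n = 3 each, Benjamini-Hochberg adjustment over 22404 genes, threshold 0.05). Log2 fold changes and SEs come from this fit, and 95% intervals from the SE. CPM is the count divided by the library total and scaled to 1000000, further divided by the union of annotated exons for values per kb. The alternatives were DESeq2 1.42.0, RLE factors, library totals alone, no filter, at least 10 counts in every sample of 1 group, a replicate block, a threshold of 0.01 and leaving out each sample. The fit was tested on simulated data with the same dispersion for all genes and known changes in well-covered genes only. That test therefore does not cover genes with few reads.

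The 9 genes, their division by source, the complement and marker lists and the rules for named genes were chosen with earlier results of these data known. Named were the 9 genes, every list gene past the threshold, list genes that complete a pathway step, fixed reference markers, Hira, and for each of the 9 genes the 3 with the nearest pattern (log2 CPM with a prior count of 2). At 3 samples a group an exact permutation test cannot go below 0.1. The counts of any pair of replicates differed by more than sampling noise. The motif list was written by hand and uses 150-base windows. 1 gene of the complement list is counted but not reported here by name.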

Additional observations from a re-analysis of the deposited data

How the results depend on the processing

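The same 6 of the 9 genes were past the genome-wide threshold as higher in every alternative with a threshold of 0.05, although DESeq2 gives no adjusted p for C3 and C4b and the filter of 10 counts drops C3. The 12 list genes were called in all of these alternatives and 0 were lower, with Hc or Nptx2 added under some, for counts of 12 to 14. Over all genes, 2101 were higher (1571 to 2214 when 1 sample was left out, 1407 to 2462 otherwise) and 1448 lower. The number lower was 732 at a threshold of 0.01, and ranged from 917 to 1673 when 1 sample was left out, with 917, 934 and 960 without control replicates 1, 2 and 3. The macrophage-made median of 1.09 was 1.01 to 1.15 when 1 sample was left out, the lowest without cKO replicate 2, and the mesenchymal-made median of 0.65 was 0.33 to 0.87. C3 was the only one of the 9 genes whose direction turned, from 0.62 to -0.11 without cKO replicate 1, with a range up to 1.07. Replicate numbers showed no pairing by this measure, since the deviations of same-numbered samples correlated at -0.013, -0.0045 and -0.015. With 3 samples a group and all genes weighted alike, values near 0 cannot exclude pairing, and the labels do not state it. With the replicate block, 1901 genes were higher and 1251 lower, and the block kept the 12 list calls and the 6 of 9 genes. Depth limits C3, C4b, Vsig4, Hc and the terminal components, which rest on few reads.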
